A study of Mus musculus with 9 samples.

Results

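The unfolded protein response in the colonic mucosa was examined through 10 genes, Hspa5, Hsp90b1, Xbp1, Ern1, Ern2, Atf4, Atf6, Ddit3, Dnajb9 and Pdia4, taken by gene symbol from a table of 54146 genes. All 10 were among the 14410 genes tested. RNA-seq had been done in 5 ApcMin/+ mice (2 female, 3 male) and 4 ApcMin/+; p16cis/cis mice (3 female, 1 male), all C57BL/6J and 15 wk old, and each mouse was 1 replicate. The labels name colonic mucosa as the tissue, and the methods name its crypts as the source of the RNA. Both genotypes carry 1 ApcMin allele, a germline mutation of the tumor suppressor Apc, and the second is also homozygous for p16cis, a germline knock-in of a DNA element that brings methylation to the p16 promoter. The comparison asks which genes differ in colonic mucosa when p16 epimutation is added to the Apc mutation.

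The endoplasmic reticulum (ER) folds proteins that are secreted or placed in membranes, and it is large in goblet cells, the mucus-secreting cells of the colon, and in plasma cells. When unfolded protein builds up there, sensors in the ER membrane start the unfolded protein response. IRE1 (Ern1, and Ern2 in mucus-secreting epithelium) cuts Xbp1 mRNA so that it encodes an active transcription factor, ATF6 moves to the Golgi and is cleaved into one, and PERK (Eif2ak3) slows translation while that of Atf4 goes on. Among the genes turned on are ER chaperones (Hspa5, Hsp90b1, Dnajb9), folding enzymes (Pdia4) and, in the ATF4 arm, Ddit3, which encodes the factor CHOP linked to cell death.

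Sequences through which this response is best known were looked up in the genes. In mouse Xbp1 (chr11:5520659-5525893, plus strand, GRCm38), the segment that IRE1 removes was found in exon 4 at chr11:5524279-5524304, and it was present in 3 of the 4 annotated transcripts. It is printed in capitals with 20 bases on each side (chr11:5524259-5524324, GENCODE M21). The gene counts used here do not separate the cut form of Xbp1 from the uncut one.
Xbp1 segment: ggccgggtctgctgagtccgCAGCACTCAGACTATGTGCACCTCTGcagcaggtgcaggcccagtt

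The ER stress element (ERSE), CCAAT followed by 9 bases of any kind and CCACG, is the motif bound by ATF6 together with NF-Y in chaperone promoters. Windows of 300 bases around the start (250 before and 50 after) were available in RefSeq (GRCm38.p6) for 8 of the 10 genes, and both strands were searched. Hspa5 and Hsp90b1 held the motif. They are shown because both encode major ER chaperones and because the motif was rare, found in 0.119% of 32851 windows (39). The 250 bases before the start of Hspa5 (chr2:34771840-34772089, plus strand) held 1 copy, at positions -65 to -47 from the start. Those of Hsp90b1 (chr10:86705445-86705694, minus strand) held 2, 1 on the strand of the gene at -212 to -194 and 1 on the opposite strand at -107 to -89. Positions count from the RefSeq start. The GENCODE M21 model of Hspa5 begins earlier, at chr2:34771970, and the motif of Hspa5 (chr2:34772025-34772043) lies after that start. Capitals mark the motif.
Hspa5 promoter: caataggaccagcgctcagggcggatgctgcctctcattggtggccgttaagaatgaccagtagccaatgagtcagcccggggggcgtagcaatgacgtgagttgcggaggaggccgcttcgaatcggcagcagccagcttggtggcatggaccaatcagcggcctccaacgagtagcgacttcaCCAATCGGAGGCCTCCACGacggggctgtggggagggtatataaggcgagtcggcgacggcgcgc
Hsp90b1 promoter: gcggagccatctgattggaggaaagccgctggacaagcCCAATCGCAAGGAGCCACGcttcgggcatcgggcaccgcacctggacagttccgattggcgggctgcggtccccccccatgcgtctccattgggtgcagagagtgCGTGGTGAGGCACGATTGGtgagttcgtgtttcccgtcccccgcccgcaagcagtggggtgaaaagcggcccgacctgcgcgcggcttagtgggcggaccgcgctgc

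Of 3 other motifs, ERSE-II (ATTGG, 1 base of any kind and CCACG) was in 0.0365% of all windows, the core of the XBP1 element (TGACGTGG) in 0.676% and the amino acid response element of ATF4 (TGATGNAA) in 3.97%. None of the 3 was found in the windows of the 8 genes.

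Values are normalized counts, which are a gene's reads scaled by the size factor of the library, and replicates 1 to 5 of ApcMin/+ and 1 to 4 of ApcMin/+; p16cis/cis are given in that order. Libraries held 15745098 to 17885918 reads on genes in ApcMin/+ and 13523500 to 14900228 in ApcMin/+; p16cis/cis. The mitochondrial share of reads did not overlap between genotypes, 8.74% to 15.6% in ApcMin/+ and 19.3% to 29.8% in ApcMin/+; p16cis/cis (exact permutation p = 0.00794). Cdkn2a, which encodes p16, had 0 reads in 9 of 9 mice, which allows a share of up to 2.22e-05% in the shallowest library by counting error alone, so the genotype labels could not be checked through it. All 11 markers of colon epithelium were detected. ApcMin/+ replicate 4 stood apart, with a summed T cell marker level of 73.7 against 538 to 1007 in the other 4 ApcMin/+ mice and with the lowest Hspa5, Hsp90b1 and Pdia4 of its genotype, so results are also given without it.

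Of the 10 genes, 1 was lower (Dnajb9) and 2 were higher (Atf4 and Ddit3) in ApcMin/+; p16cis/cis mice at a Benjamini-Hochberg adjusted p under 0.05 (limma, adjusted over all 14410 genes). The other 7 did not pass. Dnajb9 was also the only 1 of the 10 whose genotypes did not overlap, where 8.95% of all genes lay wholly lower and 7.24% wholly higher. For the test, the background was 16.9% of all genes passing, 8.75% lower and 8.14% higher. None of the 10 also had a fold change over 2, which 3.48% of all genes had, and none passed by Bonferroni adjustment. The median log2 fold change was -0.18 over the 10 genes and -0.004 over all genes tested. Without ApcMin/+ replicate 4, the lower genes were 4 (Dnajb9, Hsp90b1, Pdia4 and Atf6) against a background of 12.5% lower in that fit. That mouse had the lowest Hsp90b1, Pdia4 and Atf6 of its genotype and was set apart partly by such values. Leaving it out lowers the fold changes of these genes by construction, so the larger count is not separate support.

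**Figure D1:**
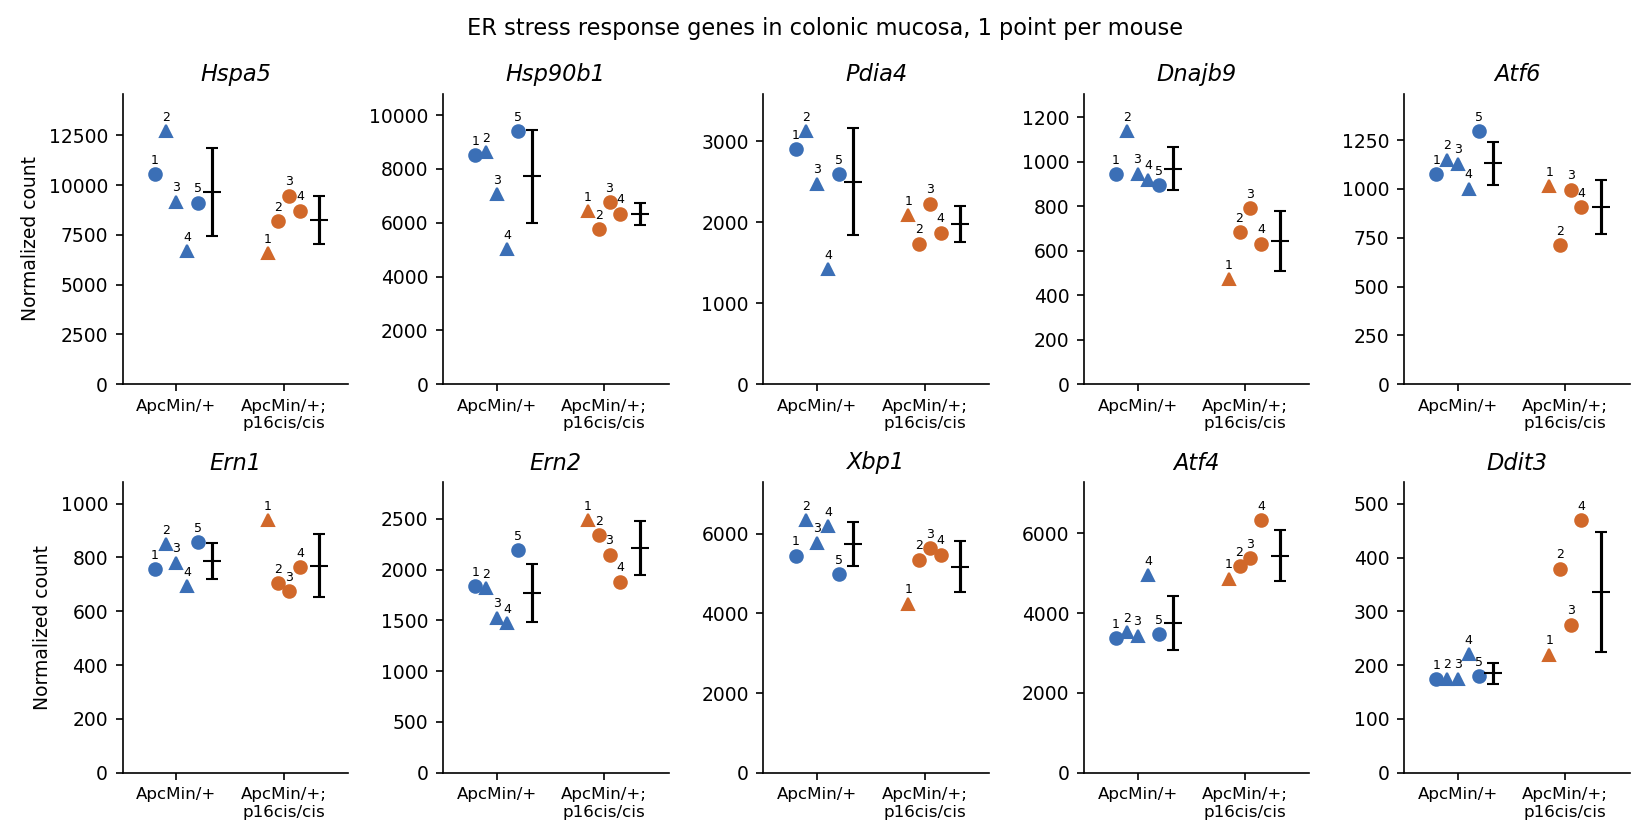
Normalized count (vertical axes, from 0) of the 10 ER stress response genes in each mouse, with ApcMin/+ in blue and ApcMin/+; p16cis/cis in orange, circles for females, triangles for males and replicate numbers above the points. Black bars are the mean ± SD. For Dnajb9 the 4 orange points, 471 to 790, lie below the 5 blue points, 896 to 1136, and for Atf4 and Ddit3 3 of 4 orange points lie above every blue one.

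The expression levels of the 10 genes spanned a wide range. As RPKM, reads scaled to the length of a gene's merged exons and to all reads on genes so that genes can be compared, Hspa5 was highest in ApcMin/+ mice at 126.8 ± 35.1 (SD, n = 5), followed by Hsp90b1 at 106 ± 27.5, Xbp1 at 97.5 ± 11.8 and Atf4 at 86.9 ± 10.8. The ranges of neighbours overlapped among these 4 genes. Pdia4 stood at 58.1 ± 17.5, Ern2 at 33.02 ± 6.33 and Dnajb9 at 20.998 ± 3.21. Atf6 (6.77 ± 0.967), Ddit3 (5.91 ± 0.361) and Ern1 (5.33 ± 0.764) were the lowest, with overlapping ranges, and Dnajb9 was above all of them in each of the 5 ApcMin/+ mice.

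On this scale, the order of the mean levels differed between the genotypes in 3 places. Atf4 moved from the 4th place to the 1st, at 110 ± 9.51 (SD, n = 4) against 92.4 ± 8.25 for Hspa5, 75.7 ± 4.31 for Xbp1 and 74.9 ± 7.82 for Hsp90b1. Xbp1 and Hsp90b1 changed places but differed by less than their spread. Ddit3 (9.25 ± 2.69) came above Atf6 (4.71 ± 0.938) in all 4 mice, whereas in ApcMin/+ mice Atf6 was above Ddit3 in 4 of 5. These levels are shares of all reads, mitochondrial reads included. The order also depended on the gene model. Per length of the longest coding transcript, Hsp90b1 (151.7), Xbp1 (148.8) and Hspa5 (146) in ApcMin/+ mice lay within their spread. On that scale Ddit3 was above Atf6 in both genotypes (11.4 against 8.62 in ApcMin/+ and 17.8 against 6.00 in ApcMin/+; p16cis/cis mice), and it was below Dnajb9 in ApcMin/+ (21.7) and above it in ApcMin/+; p16cis/cis mice (12.4).

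**Figure D2:**
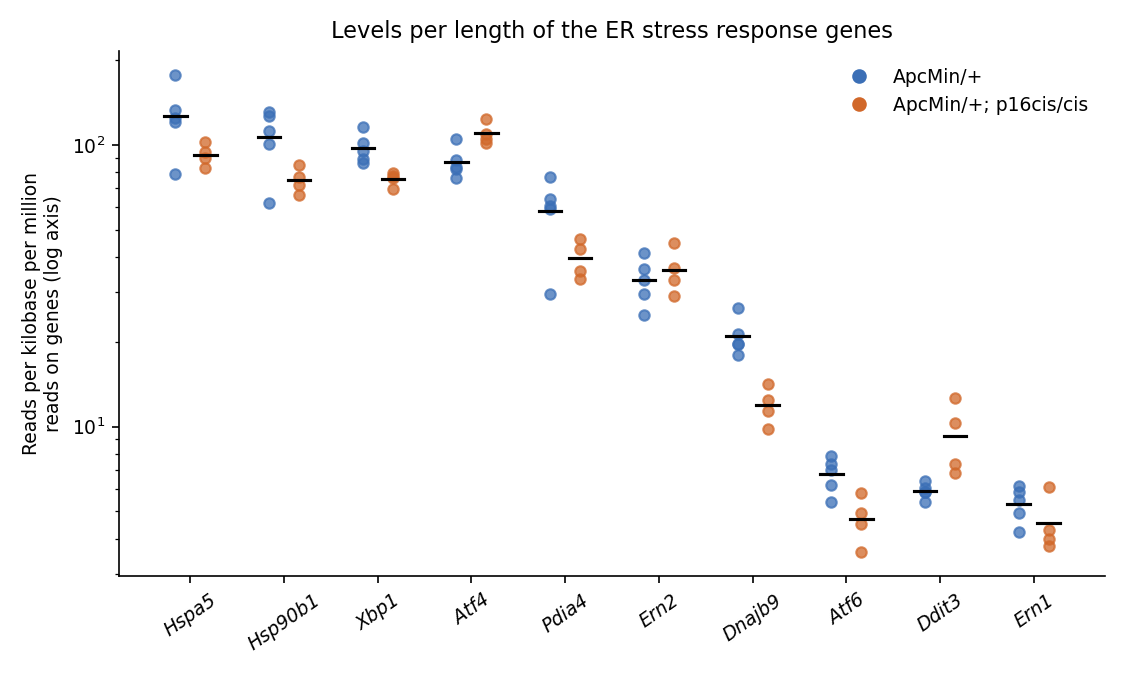
Level of each gene in RPKM, scaled by merged exon length and by all reads on genes (log axis), with 1 point per mouse, ApcMin/+ in blue, ApcMin/+; p16cis/cis in orange and black lines at the means. Genes are ordered by the ApcMin/+ mean, from Hspa5 at 126.8 to Ern1 at 5.33, and Atf4 is the highest of the orange means at 110.

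Among the sensors, Ern1 and Ern2 encode the IRE1 proteins, Ern1 in most cells and Ern2 mainly in mucus-secreting epithelium. Ern2 normalized counts in ApcMin/+ mice were 1840, 1819, 1528, 1475 and 2193, and in ApcMin/+; p16cis/cis mice 2490, 2340, 2147 and 1881. The 2 ranges overlapped, and 2 of the 4 ApcMin/+; p16cis/cis mice were above every ApcMin/+ mouse. Ern2 had a log2 fold change of 0.33 (SE 0.13, 95% interval 0.04 to 0.62) and the gene did not pass (limma adjusted p = 0.102). In females alone, 2 against 3 mice, the log2 fold change was 0.07 (limma adjusted p = 0.797).

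Ern1 normalized counts were 755, 850.1, 780.5, 694 and 856 in ApcMin/+ mice and 939.5, 703.5, 675 and 763 in ApcMin/+; p16cis/cis mice. ApcMin/+; p16cis/cis replicate 1, the male, was the highest of all 9 and replicate 3 the lowest. For Ern1 the log2 fold change was -0.04 (SE 0.12, interval -0.30 to 0.22, limma adjusted p = 0.852). The ratio of Ern2 to Ern1, compared after their values were seen and so without a test, was 1.96 to 2.56 in ApcMin/+ mice and 2.47 to 3.33 in ApcMin/+; p16cis/cis mice in normalized counts, and per length Ern2 was 5.40 to 9.17 times as high as Ern1 in each mouse.

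Atf6 encodes the sensor that is itself the precursor of a transcription factor. Its normalized counts were 1076, 1150, 1130, 1000.4 and 1294 in ApcMin/+ mice and 1013, 711, 995 and 907 in ApcMin/+; p16cis/cis mice. Of the 4 ApcMin/+; p16cis/cis mice, 3 were below every ApcMin/+ mouse. For Atf6 the log2 fold change was -0.33 (SE 0.12, interval -0.59 to -0.06), with limma adjusted p = 0.0889 over all mice and 0.0494 without ApcMin/+ replicate 4. With correction for GC content and length it was -0.19 (limma adjusted p = 0.265).

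Xbp1, the factor downstream of IRE1, had normalized counts of 5445, 6349, 5772, 6192 and 4988 in ApcMin/+ mice and 4248, 5350.1, 5643 and 5472 in ApcMin/+; p16cis/cis mice. The groups overlapped, with only ApcMin/+; p16cis/cis replicate 1 below the ApcMin/+ range. Xbp1 had a log2 fold change of -0.15 (SE 0.12, interval -0.41 to 0.10, limma adjusted p = 0.389), and it turned to 0.07 among females alone.

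Dnajb9 (ERdj4), a co-chaperone of Hspa5 and a known target of active XBP1, was the gene that fell. Its normalized counts were 944, 1136, 946, 919 and 896 in ApcMin/+ mice and 471, 683, 790.4 and 631 in ApcMin/+; p16cis/cis mice, with means of 968 ± 96.2 (SD, n = 5) and 644 ± 133 (SD, n = 4). Every ApcMin/+; p16cis/cis mouse was below every ApcMin/+ mouse. For Dnajb9 the log2 fold change was -0.61 (SE 0.14, interval -0.92 to -0.30, limma adjusted p = 0.0161), and the exact permutation p, 0.00794, was the smallest that 9 mice allow. Dnajb9 passed in all 9 fits that left out 1 mouse (limma adjusted p 0.0114 to 0.0454).

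The fall of Dnajb9 did not pass once GC content was corrected for or the males were left out. Dnajb9 had the lowest GC content of the 10 genes, 40.6%, and over all genes the median GC content was 44.8% in those that passed as lower, 49.7% in all tested and 53.7% in those that passed as higher. With correction for GC content and length the log2 fold change of Dnajb9 was -0.43 (limma adjusted p = 0.0759), and among females alone it was -0.40 (limma adjusted p = 0.154).

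Hspa5 (BiP), the main chaperone of the ER and the usual marker of ER stress, had normalized counts of 10543, 12697, 9166, 6689 and 9118 in ApcMin/+ mice and 6593, 8180, 9464 and 8721 in ApcMin/+; p16cis/cis mice. The ranges overlapped, and the lowest mice of each, ApcMin/+ replicate 4 and ApcMin/+; p16cis/cis replicate 1, were close to each other. Hspa5 had a log2 fold change of -0.21 (SE 0.17, interval -0.59 to 0.17) and did not pass (limma adjusted p = 0.442, and 0.112 without ApcMin/+ replicate 4). On this interval the fold change of Hspa5 lay between 0.665 and 1.13.

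Hsp90b1 (GRP94), which folds a limited set of secreted and membrane proteins, had normalized counts of 8510, 8629, 7064, 5008 and 9392 in ApcMin/+ mice and 6421, 5752, 6759 and 6335 in ApcMin/+; p16cis/cis mice. The 4 ApcMin/+; p16cis/cis mice lay between ApcMin/+ replicate 4 and the other ApcMin/+ mice. The log2 fold change was -0.26 (SE 0.17, limma adjusted p = 0.309) over all mice and -0.41 (limma adjusted p = 0.0225) without replicate 4. With that mouse left out and the GC and length correction it was -0.17 (limma adjusted p = 0.270).

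Pdia4, a protein disulfide isomerase, was arranged in the same way, with normalized counts of 2904, 3123, 2479, 1420 and 2594 in ApcMin/+ mice and 2085, 1734, 2230 and 1870.4 in ApcMin/+; p16cis/cis mice. ApcMin/+ replicate 4 was again below all other mice. The log2 fold change was -0.30 (SE 0.20, limma adjusted p = 0.324) over all mice, -0.49 (limma adjusted p = 0.00991) without replicate 4, and -0.47 (limma adjusted p = 0.0149) when the GC and length correction was added.

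**Figure D3:**
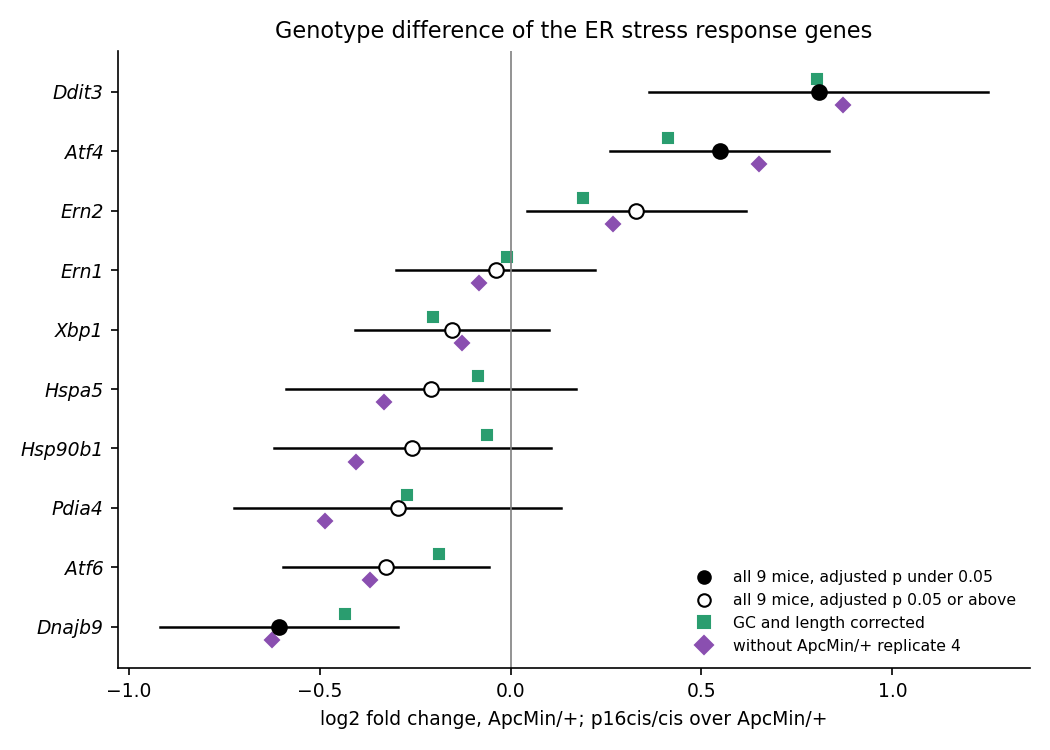
log2 fold change of each gene, ApcMin/+; p16cis/cis over ApcMin/+ (horizontal axis), over all 9 mice with the 95% interval of limma (black, filled where the adjusted p is under 0.05), with the GC and length correction (green squares) and without ApcMin/+ replicate 4 (purple diamonds). Ddit3 (0.81) and Atf4 (0.55) lie to the right and Dnajb9 (-0.61) to the left, and the diamonds of Hsp90b1 (-0.41) and Pdia4 (-0.49) lie farther left than the values over all mice.

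Atf4, the factor whose translation PERK favours, rose at the mRNA level. Its normalized counts were 3368, 3518, 3429, 4945 and 3472 in ApcMin/+ mice and 4867, 5179, 5380 and 6335 in ApcMin/+; p16cis/cis mice, with means of 3746 ± 672 (SD, n = 5) and 5440.2 ± 633 (SD, n = 4). ApcMin/+ replicate 4 lay within the ApcMin/+; p16cis/cis range, and the other 4 ApcMin/+ mice lay below it. Atf4 had a log2 fold change of 0.55 (SE 0.13, interval 0.26 to 0.83, limma adjusted p = 0.0178), and 0.65 (limma adjusted p = 0.00161) without replicate 4. The exact permutation p, which was not adjusted, was 0.0238. It was also 0.0238 for Atf6 and was 0.0476 for Ern2, which both did not pass in limma. The rise of Atf4 passed with sex as a covariate (limma adjusted p = 0.0371), among females alone (0.0288) and with the GC and length correction (0.0288). It did not pass without ApcMin/+; p16cis/cis replicate 4 (0.0600).

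Ddit3 (CHOP), a target of ATF4, rose by the largest factor of the 10 genes. Its normalized counts were 174, 175, 175, 219.9 and 179 in ApcMin/+ mice and 219.7, 380, 275 and 470 in ApcMin/+; p16cis/cis mice, with means of 185 ± 19.9 (SD, n = 5) and 336 ± 111 (SD, n = 4). The ApcMin/+ mice other than replicate 4 lay close together, the ApcMin/+; p16cis/cis mice were spread widely, and 3 of these 4 were above every ApcMin/+ mouse. The log2 fold change was 0.81 (SE 0.20, interval 0.36 to 1.25, limma adjusted p = 0.0214), a fitted fold change of 1.75, and the exact permutation p was 0.0159.

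The rise of Ddit3 did not pass with sex as a covariate (log2 fold change 0.73, limma adjusted p = 0.0559) or without ApcMin/+ replicate 2 (0.0503), ApcMin/+ replicate 3 (0.0518), ApcMin/+; p16cis/cis replicate 2 (0.0693) or replicate 4 (0.0648). The females alone gave a log2 fold change of 1.05 (limma adjusted p = 0.0432). The single male among the ApcMin/+; p16cis/cis mice, replicate 1, had the lowest Ddit3, Atf4, Dnajb9, Xbp1 and Hspa5 of its genotype and the highest Ern1, Ern2 and Atf6.

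The mitochondrial share of reads moved with genotype, which took up 78.1% of its variance over the 9 mice. With that share as a covariate, limma passed 0 of 14410 genes (798 at an unadjusted p under 0.05), and the log2 fold change was -0.80 for Dnajb9, 0.53 for Atf4 and 0.18 for Ddit3 (limma adjusted p 0.848, 0.848 and 0.945). The share and the genotype cannot be told apart with these mice.

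Ratios of single genes, chosen after the values were seen and so given without a test, summarise the opposite directions. The ratio of Atf4 to Dnajb9 in normalized counts was 3.10 to 5.38 in ApcMin/+ mice and 6.81 to 10.3 in ApcMin/+; p16cis/cis mice, without overlap. The ratio of Ddit3 to Hspa5 was 0.0138 to 0.0329 in ApcMin/+ mice and 0.0291 to 0.0539 in ApcMin/+; p16cis/cis mice, with overlap.

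The variation between mice of 1 genotype was compared among the genes in 39 relations, and none passed adjustment. Each mouse was expressed as its log2 deviation from the mean of its genotype, and exact permutations were made within genotypes (n = 9). Hspa5 and Dnajb9 had Pearson's r = 0.71 (exact permutation p = 0.0135, Benjamini-Hochberg adjusted 0.528) and Spearman's rho = 0.82 (exact permutation p = 0.00833, adjusted 0.325), with r = 0.87 without the 2 mice farthest in Hspa5. Hspa5 and Pdia4 had r = 0.79 (exact permutation p = 0.0337, adjusted 0.645) and rho = 0.68 (p = 0.0653, adjusted 1), and r fell to 0.24 without the 2 farthest mice. For Hspa5 and Hsp90b1, r was 0.70 (exact permutation p = 0.102, adjusted 0.645) and rho 0.47 (p = 0.270, adjusted 1), with r = 0.16 without those 2. The relations of Hspa5 with Pdia4 and Hsp90b1 therefore rested on those mice, ApcMin/+ replicates 2 and 4.

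**Figure D4:**
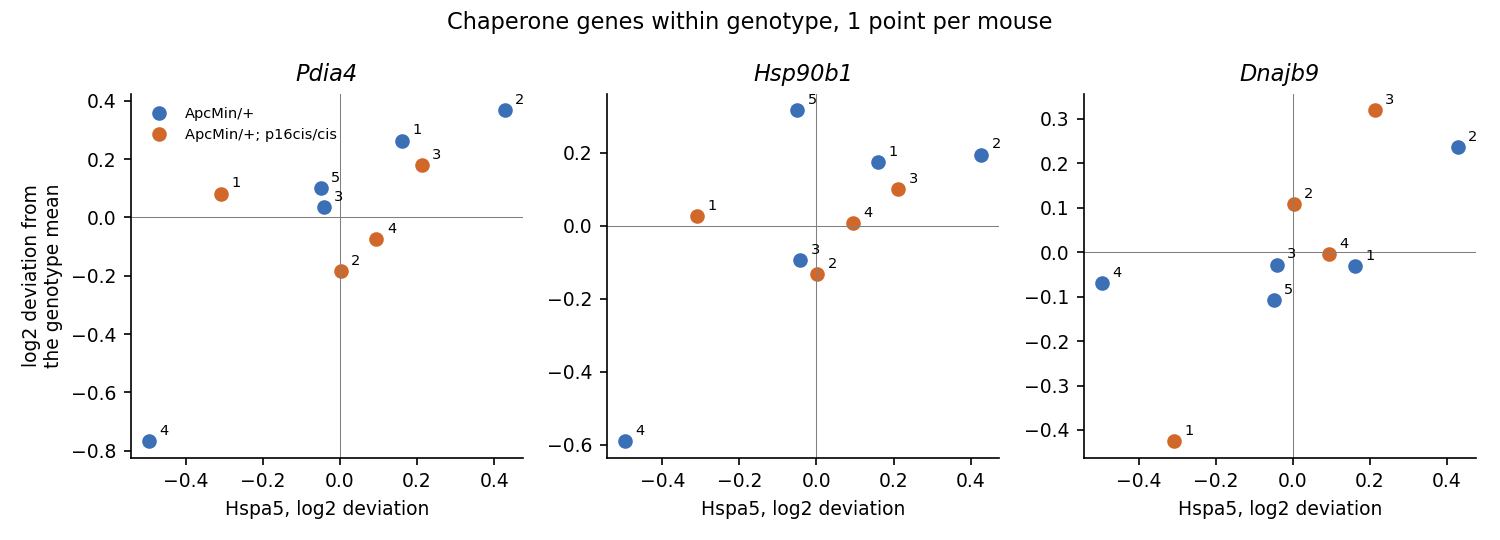
log2 deviation of Pdia4, Hsp90b1 and Dnajb9 from the genotype mean (vertical axes) against that of Hspa5 (horizontal axes), 1 numbered point per mouse, ApcMin/+ in blue and ApcMin/+; p16cis/cis in orange. ApcMin/+ replicate 4 lies at the lower left of the Pdia4 and Hsp90b1 panels, and Pearson's r is 0.79, 0.70 and 0.71 from left to right.

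By the same deviations, the genes most like Hspa5 among the other 14409 were Exosc3 (r = 0.951), Id4 (0.950), Eya2 (0.947), Rbm12b2 (0.943) and Zfp428 (0.942). Of the ER stress response genes Pdia4 ranked 208th, Dnajb9 574th and Hsp90b1 640th. For Ern2 the most alike were Adcy9 (r = 0.987), Htr4 (0.9752), Papola (0.973), Kat6a (0.968) and Mdc1 (0.968). With 9 mice these values are a description.

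Cells with a large ER were followed through their markers. The summed normalized count of 12 plasma cell markers was 5056 to 8002 in ApcMin/+ mice and 3447 to 4642 in ApcMin/+; p16cis/cis mice. Sdc1, which epithelial cells also express, made up much of that sum (3538 to 5167 and 2985 to 3985). Without Sdc1 the sum was 304 in ApcMin/+ replicate 4, 1128 to 3498 in the other ApcMin/+ mice and 446 to 657 in ApcMin/+; p16cis/cis mice, so replicate 4 lay below every ApcMin/+; p16cis/cis mouse. Jchain, which joins immunoglobulin units, was 17.8 in ApcMin/+ replicate 4 and 77.0 to 257 in the other ApcMin/+ mice, against 12.6 to 18.8 in ApcMin/+; p16cis/cis mice. Of the 11 plasma cell markers tested, 2 fell and 0 rose, 18.2% against the background of 16.9%. Tnfrsf17 was under 10 in all mice, and Derl3 is also in the list of ER-associated degradation genes. In limma 7 of the 11 had an unadjusted p under 0.05, as did 4779 of all 14410 genes. The median log2 fold change of the list was -1.55. Within genotypes the plasma cell marker mean had r = 0.84 with Pdia4, 0.81 with Hsp90b1 and 0.76 with Hspa5 (exact permutation p = 0.0865, 0.0813 and 0.0573, adjusted 0.645 for each), and r was 0.47, 0.63 and 0.63 without the 2 mice farthest in that mean. Their part in the chaperone values was not tested. In bulk mucosa, fewer cells of a type and less RNA per cell cannot be told apart.

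Goblet cell markers summed to 319409 to 476879 in ApcMin/+ mice and 344227 to 638854 in ApcMin/+; p16cis/cis mice, with overlap. Of 13 tested, 1 rose and 1 fell, 15.4% against the background of 16.9%. In limma 6 of the 13 had an unadjusted p under 0.05, and the median log2 fold change of the list was 0.21. Spink4, a goblet cell peptide, rose with a log2 fold change of 1.41 (SE 0.32, limma adjusted p = 0.0139), while Galnt12, an enzyme of mucin glycosylation, fell by 0.45 on the log2 scale (SE 0.11, limma adjusted p = 0.0224). Spink4 did not pass with the GC and length correction (limma adjusted p = 0.0562), and Galnt12 did not with sex as a covariate (0.0513) or in 5 of the 9 fits that left out 1 mouse. Of the remaining marker lists, 0 genes of colon epithelium (11 tested), tuft cells (7) and T cells (10) passed in limma. At an unadjusted p under 0.05 these lists held 4, 1 and 0, and all genes 4779 of 14410. The marker genes that passed were 1 each of the crypt stem and progenitor (higher, 9 tested), myeloid (lower, 8) and stromal lists (lower, 10). For small intestine 2 of 7 were lower, for absorptive colonocytes 3 lower and 1 higher of 13, and for enteroendocrine cells 2 lower and 1 higher of 9.

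The other genes of ER protein handling were taken from 8 lists covering 202 genes, of which 198 were tested. Of these, 26 passed as lower and 19 as higher, 22.7% against the background of 16.9%, with a median log2 fold change of -0.05. Without the 10 genes described so far, 25 were lower and 17 higher of 188. By list, the share passing was 29.4% for sensors, 25% for transcription factors, 25% for ER chaperones and 33.3% for disulfide enzymes. It was 23.1% for ER-associated degradation, 12.8% for ATF4 and CHOP targets, 17.1% for translocon and N-glycosylation and 27.6% for ER to Golgi transport. No list moved in 1 direction only, and the median of each of the 8 lay between -0.13 and -0.01. Without ApcMin/+ replicate 4, 38 of the 198 passed as lower. The share of all genes passing as lower also grew in that fit, from 8.75% to 12.5%.

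The sensor list held 17 genes, both sensors and genes that act with them, such as Traf2, Mbtps2 and Eif2s1. Of these, 3 fell and 2 rose. Creb3l1 (OASIS), an ER-bound factor of goblet cell maturation, rose from 11998 ± 1151 (SD, n = 5) to 19119 ± 2657 (SD, n = 4), a log2 fold change of 0.67 (SE 0.13, limma adjusted p = 0.00814), without overlap. Creb3l3 (CREBH), an ER-bound factor of enterocytes and liver tied to lipid metabolism, fell from 516 ± 373 (SD, n = 5) to 69.6 ± 23.1 (SD, n = 4), a log2 fold change of -2.63 (SE 0.44, limma adjusted p = 0.00431). Its 5 ApcMin/+ values ran from 217 to 1074, all above the 48.0 to 101.8 of the ApcMin/+; p16cis/cis mice. Traf2, an adaptor of IRE1 signalling, rose (0.41, SE 0.10, limma adjusted p = 0.0152) and Mbtps2, a protease that releases ATF6, fell (-0.50, SE 0.15, limma adjusted p = 0.0431). The call of Mbtps2 was lost with the GC and length correction (limma adjusted p = 0.327), with sex as a covariate (0.109) and in all but 2 of the 9 fits that left out 1 mouse.

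Eif2ak3, which encodes PERK, the sensor upstream of ATF4, was the third gene of the sensor list that fell and was named after its values were seen. Its normalized counts were 620, 744, 660, 761 and 637 in ApcMin/+ mice and 513, 479, 544 and 526 in ApcMin/+; p16cis/cis mice, without overlap. The log2 fold change was -0.41 (SE 0.10, limma adjusted p = 0.0228), opposite in sign to those of Atf4 and Ddit3. It did not pass with sex as a covariate (limma adjusted p = 0.0619), among females alone (0.286), or without ApcMin/+ replicate 2 (0.0641), ApcMin/+ replicate 3 (0.0518), ApcMin/+; p16cis/cis replicate 2 (0.0692) or replicate 4 (0.0519).

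Of 12 transcription factor genes, Nfyb, a subunit of the NF-Y complex, passed in addition to Atf4 and Ddit3 and was lower (-0.43, SE 0.12, limma adjusted p = 0.0260). Nfyb did not pass with the GC and length correction (limma adjusted p = 0.212) or with sex as a covariate (0.0565), and it passed in 3 of the 9 fits that left out 1 mouse. Of 39 tested targets of ATF4 and CHOP, 4 were lower and 1 higher, 12.8% against the background of 16.9%, with a median of -0.02. Sesn2, a stress-induced regulator of mTORC1, rose from 411 ± 45.4 (SD, n = 5) to 573 ± 33.5 (SD, n = 4), a log2 fold change of 0.48 (SE 0.11, limma adjusted p = 0.0155, and 0.0688 with the GC and length correction). Ddit4 (REDD1), which also restrains mTORC1, fell from 980.4 ± 246 (SD, n = 5) to 539 ± 136 (SD, n = 4), a log2 fold change of -0.86 (SE 0.20, limma adjusted p = 0.0158). Cth, an enzyme of cysteine synthesis, fell as well (-0.74, SE 0.17, limma adjusted p = 0.0134). Asns, the asparagine synthetase that is a classical ATF4 target, had a log2 fold change of -0.18 (SE 0.15, limma adjusted p = 0.429) and was named after its values were seen.

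Among 24 ER chaperone genes, 4 rose and 2 fell. Fkbp11, a peptidyl-prolyl isomerase of secretory cells, rose from 211 ± 39.6 (SD, n = 5) to 503 ± 138 (SD, n = 4), a log2 fold change of 1.22 (SE 0.21, limma adjusted p = 0.00532). Fkbp2, a related isomerase of the ER, rose from 1074 ± 90.7 (SD, n = 5) to 2101 ± 430.4 (SD, n = 4), a log2 fold change of 0.95 (SE 0.14, limma adjusted p = 0.00317). Both were above every ApcMin/+ mouse in all 4 ApcMin/+; p16cis/cis mice. Serp1, which protects unfolded proteins at the membrane, fell with Dnajb9, with a log2 fold change of -0.68 (SE 0.15, limma adjusted p = 0.0142).

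Of 21 disulfide enzyme genes, 5 fell and 2 rose. Tmx3 (-0.74, SE 0.13, limma adjusted p = 0.00604) and Tmx1 (-0.69, SE 0.11, limma adjusted p = 0.00327), which encode membrane-bound thioredoxin proteins, fell without overlap. Txndc12 (0.59, SE 0.09, limma adjusted p = 0.00316), a soluble thioredoxin of the ER, and Erp29 (0.44, SE 0.12, limma adjusted p = 0.0247), a chaperone with a thioredoxin fold, rose. Erp29 did not pass with sex as a covariate (limma adjusted p = 0.0657) and passed in 4 of the 9 fits that left out 1 mouse.

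Of 26 genes of ER-associated degradation, which returns misfolded proteins to the cytosol, 4 fell and 2 rose. Edem3, which trims mannose from misfolded glycoproteins, fell from 1633 ± 239 (SD, n = 5) to 855 ± 56.3 (SD, n = 4), a log2 fold change of -0.92 (SE 0.12, limma adjusted p = 0.00172). Rnf139, a ubiquitin ligase of the ER membrane, fell too (-0.86, SE 0.16, limma adjusted p = 0.00665). Vcp, the ATPase that pulls proteins out of the membrane (0.61, SE 0.15, limma adjusted p = 0.0224), and Aup1, an ER membrane factor of degradation (0.66, SE 0.12, limma adjusted p = 0.00635), rose. Vcp did not pass with sex as a covariate (limma adjusted p = 0.0555) and passed in 6 of the 9 fits that left out 1 mouse.

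Of 35 translocon and N-glycosylation genes, 4 rose and 2 fell. Sec61g, the small subunit of the protein-conducting channel, had a log2 fold change of 1.00 (SE 0.23, limma adjusted p = 0.0153) at low counts, 31.8 to 53.2 in ApcMin/+ and 72.1 to 105 in ApcMin/+; p16cis/cis mice. Dad1, a subunit of oligosaccharyltransferase, rose (0.65, SE 0.11, limma adjusted p = 0.00529). Pgm3, an enzyme that makes a sugar donor (-0.38, SE 0.12, limma adjusted p = 0.0409), and Stt3b, a catalytic subunit of oligosaccharyltransferase (-0.28, SE 0.09, limma adjusted p = 0.0463), fell. Neither passed with the GC and length correction (limma adjusted p = 0.157 for Pgm3 and 0.0749 for Stt3b, leaving 0 lower genes in this list) or with sex as a covariate (0.106 and 0.109), and Pgm3 passed in 4 and Stt3b in 2 of the 9 fits that left out 1 mouse.

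Of 29 genes of transport from the ER to the Golgi, 6 fell and 2 rose. Sec24d (-0.70, SE 0.18, limma adjusted p = 0.0239) and Sec23a (-0.63, SE 0.10, limma adjusted p = 0.00374), subunits of the COPII coat, fell, whereas Tmed3 (0.53, SE 0.11, limma adjusted p = 0.00875), a cargo receptor, and Golgb1 (0.44, SE 0.11, limma adjusted p = 0.0215), a Golgi tether, rose. With sex as a covariate neither Sec24d (limma adjusted p = 0.0529) nor Golgb1 (0.0567) passed, and each passed in 5 of the 9 fits that left out 1 mouse. Over the 8 lists the median GC content was 43.1% in the genes that were lower and 51.6% in those that were higher, and with the GC and length correction 17 of the 198 passed as lower and 18 as higher, where 6.21% of all genes passed as lower and 6.63% as higher.

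**Figure D5:**
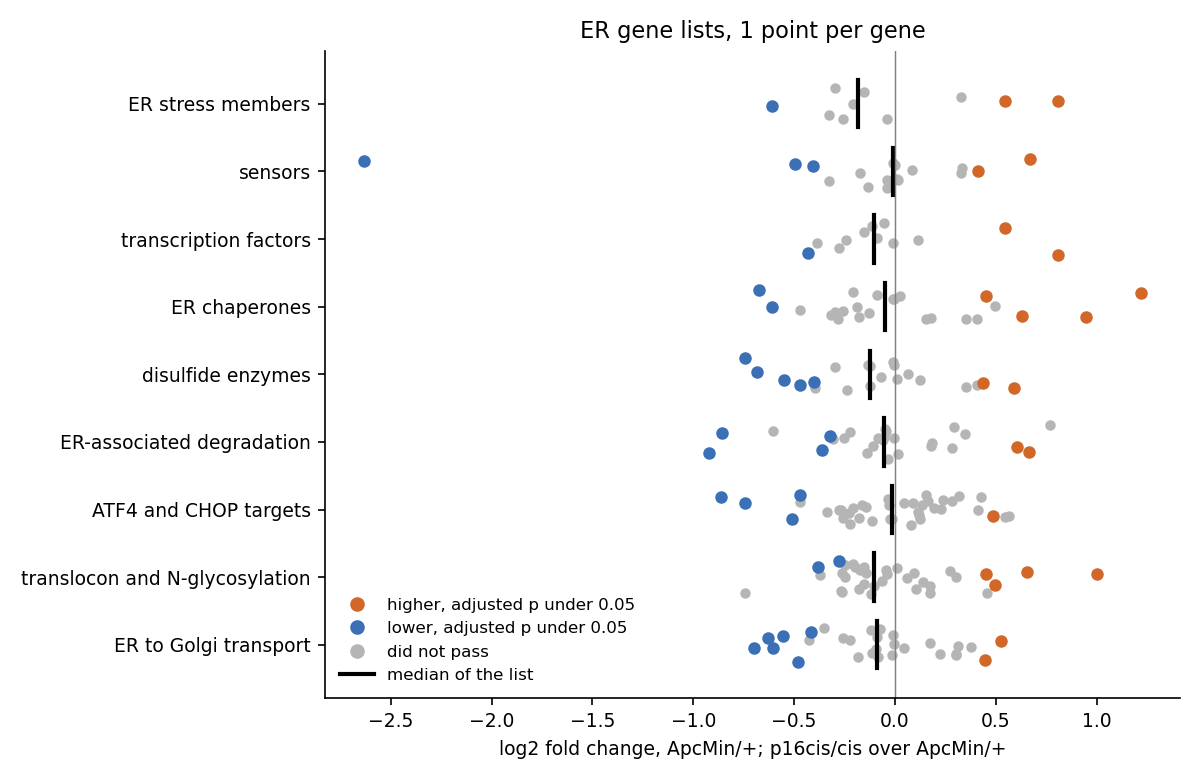
log2 fold change, ApcMin/+; p16cis/cis over ApcMin/+ (horizontal axis), of the tested genes in the 10-gene set and in 8 lists of ER genes, 1 point per gene, with orange and blue for genes that passed as higher and lower, grey for the others and a black line at the median. Each list holds genes on both sides, and the blue point farthest to the left is Creb3l3 at -2.63.

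Of the 16 tested genes with an ERSE in the promoter window, 1 was lower and 2 were higher, 18.75% against the background of 16.9%, with a median log2 fold change of 0.14, and Hspa5 and Hsp90b1, whose windows are printed above, had -0.21 and -0.26.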

How the data were processed

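RNA-seq libraries were made from 9 mice, with colonic mucosa as the labelled tissue and its crypts as the RNA source per the methods. Per the methods, BGISEQ-500 reads were mapped with BOWTIE2, RSEM estimated the level of each gene and DESeq2 normalized them, with versions and genome build not given in the sources used here. The deposited table holds signal values in which the reads of a gene are scaled by the size factor of the library. Dividing by the value of 1 read gave whole reads for 100% of positive values, to within 0.01 reads. Coordinates, lengths and GC content came from GENCODE M21 (GRCm38), which held 54079 of the 54146 identifiers without regard to version.

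The main test was the one planned for normalized counts, limma 3.58.1 (R 4.3.3) with a mean-variance trend, on log2 of the value plus 1. Genotype was the term, with Benjamini-Hochberg adjustment over the 14410 genes that reached 10 in 4 or more mice. A gene passed at an adjusted p under 0.05. The recovered reads were also tested with DESeq2 1.42.0 and edgeR 4.0.16, and other scalings, filters, covariates and omissions were tried. Single values were compared by two-sided exact permutation over the 126 splits of the mice, and these p-values are not adjusted. The GC and length correction subtracted, in each mouse, a loess trend (span 0.5) against GC content and length. The members and gene lists were chosen with earlier results of these data known. From each list the text describes up to 2 passing genes with the largest changes in each direction, and other names were chosen after their values were seen. Mice with the same replicate number did not deviate together (correlations -0.18 to 0.14), so the numbers were not used for pairing. Levels per length were computed from the recovered reads.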

Additional observations from a re-analysis of the deposited data

Results flagged for a closer look

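In 20 groups of 4 or 5 mice (10 genes in each genotype), 3 held a mouse whose gap to the nearest of the others was large for the range of its group (Dixon's criterion at 95%), where chance gives about 1 in 20. ApcMin/+ replicate 4 had an Atf4 normalized count of 4945, the other 4 ApcMin/+ mice 3368 to 3518. The same mouse had a Ddit3 normalized count of 219.9, the others 174 to 179. ApcMin/+ replicate 2 had a Dnajb9 normalized count of 1136, the others 896 to 946. Without the mouse concerned the log2 fold change was 0.65 for Atf4, 0.87 for Ddit3 and -0.55 for Dnajb9, and each passed (limma adjusted p = 0.00161, 0.0118 and 0.0447). For Atf4 and Ddit3 the mouse was the highest of ApcMin/+, so leaving it out could only enlarge the rise and is no check. For Dnajb9 leaving it out made the fall smaller.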

How the results depend on the processing

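Among the 25 alternatives, the direction of Dnajb9, Atf4, Ddit3, Hspa5, Hsp90b1, Pdia4 and Ern2 held in all, and that of Xbp1, Ern1 and Atf6 in all but 1, 4 and 1. Bonferroni adjustment and the other filters leave the log2 fold change as it was, so they could not change a direction. The fits that left out 1 mouse shared most of their mice and are not separate checks. All genes passing were 2434, with sex as a covariate 1437, among females 898, with the replicate block and GC correction 1450, with the mitochondrial share 0, by Bonferroni 27 and with 1 mouse left out 1183 to 3488. With a fold change over 2 they were 501, with sex as a covariate 331, among females 286 and with the replicate block and GC correction 405. They were 0 with the mitochondrial share, 19 by Bonferroni and 281 to 755 with 1 mouse left out. Members lower were 1, and 0 among females, with GC correction, with the replicate block and GC correction, with the mitochondrial share and by Bonferroni, and 1 to 4 with 1 mouse left out. Members higher were 2, with sex as a covariate 1, with the mitochondrial share and Bonferroni 0, and 0 to 3 with 1 mouse left out. Wider ER genes lower were 26, with sex as a covariate 14, among females 7, with GC correction 17, with the replicate block and GC correction 12, with the mitochondrial share and Bonferroni 0, and 12 to 38 with 1 mouse left out. Wider ER genes higher were 19, among females 12, with the mitochondrial share and Bonferroni 0, and 13 to 24 with 1 mouse left out. Reversed log2 fold changes were those of Xbp1 among females (0.0743), of Ern1 with sex as a covariate (0.0018), with the mitochondrial share (0.20) and without ApcMin/+; p16cis/cis replicate 2 (0.000245) or 3 (-0.139 to 0.0203 with 1 mouse left out), and, with the mitochondrial share, of Atf6 (0.0301), Mbtps2 (0.0023), Pgm3 (0.0437) and Spink4 (-0.0451). The cause was not tested. The replicate block passed 2074 genes and, of the members, also Ern2 (0.41, limma adjusted p = 0.0250). ApcMin/+ replicate 5 has no counterpart in that block. Leaving it out therefore gave the same log2 fold change for Ern2 (0.41, limma adjusted p = 0.0453) and is not a separate check. Leaving out ApcMin/+ replicate 4 with the GC correction was chosen after seeing the data.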
